A study of Mus musculus with 3 samples.

Results

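The genes of DNA replication and DNA repair were described in a myeloid population sorted from the marrow of tibiae and femurs of C57BL/6 mice, an inbred strain. The sort gate asked for CD11b, F4/80 and CD169 on the surface, without CX3CR1. The labels call these cells macrophages, and they gave 3 libraries of 1 group with no second population and no treatment. The labels gave neither the age of the mice nor the mouse or mice behind each library, so the spread between libraries may be technical. Members were taken by gene name, under a rule chosen with earlier results of these data known: name stems of replication and repair factors followed by a number (Mcm, Pola, Pold, Pole, Prim, Rfc, Rpa, Orc, Gins, Rad, Msh, Mlh, Xrcc, Brca, Lig), Pole itself, the Fanconi genes Fanca to Fancm, and Pcna, Rrm1, Rrm2 and Tyms. They came to 88 of the 11419 listed genes. By role, 42 belonged to replication, 43 to repair and 3 to neither: Rad21 of cohesin, Mcm3ap of messenger RNA export and Rad54l2, a homologue of chromatin remodellers.

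Before S phase, the origin recognition complex loads the MCM helicase onto DNA. The GINS complex helps to activate it, primase and polymerase alpha start each strand, and polymerases delta and epsilon extend it with the sliding clamp PCNA, which the RFC complex loads. Repair factors mend what copying and damage leave behind, by mismatch repair, homologous recombination, the Fanconi anaemia pathway, end joining and excision repair. Several replication factors also fill gaps during repair. Marrow holds dividing precursors of granulocytes and red cells, in which replication genes are used heavily, whereas resident macrophages are mostly not dividing.

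Levels are given in CPM, the reads of a gene per 1000000 reads assigned to listed genes, and each gene was set against a fixed level of 10 CPM with limma. The libraries had 5150020, 40149274 and 37604930 reads in replicates 1, 2 and 3, so that 10 CPM stood for 51.5 reads in replicate 1, and a count of 0 allows up to 0.583 CPM there, for counting error only. Of the genes of the sort gate, Itgam (CD11b) and Adgre1 (F4/80) were above 10 CPM at 503 ± 55.1 and 22.2 ± 3.97 CPM, and Siglec1 (CD169) was below at 2.87 ± 2.20 CPM (SD, n = 3). Of markers of other cells, 12 of 12 late neutrophil and 9 of 9 listed primary granule genes were above 10 CPM. Of 12 core macrophage genes, 5 were above and 5 below. The 12 late neutrophil genes summed to 223685, 225153 and 188677 CPM in replicates 1, 2 and 3. The summed primary granule level was 9543, 7621 and 8133 CPM and that of 11 erythroid genes 1052, 595 and 575 CPM in replicates 1, 2 and 3. Of these 11 erythroid genes, 6 were above 10 CPM and 4 below. Basophil and mast cell genes summed to 1471, 733 and 809 CPM, highest in replicate 1, and eosinophil genes to 501, 803 and 1199 CPM, highest in replicate 3. Above 10 CPM were 4 of 5 basophil and mast cell genes (0 below) and 4 of 6 eosinophil genes (1 below). The summed core macrophage level was 258, 237 and 269 CPM, and none of its genes was at 0. In such bulk samples, fewer cells of a type and less RNA per cell cannot be told apart, and the part of any of these cell types in the results that follow was not tested.

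Promoter sequences came from RefSeq (GRCm38.p6), as the 250 bases before and 50 bases after a gene's start, and 69 of the 88 members had at least 1. They were searched on both strands for the consensus of E2F factors, which drive genes of the G1 to S transition, written as TTTCCCGC, TTTCGCGC, TTTGCCGC and TTTGGCGC, with overlapping matches allowed. The E2F letters were in 15 of 43 promoters of replication genes (34.9%) and 9 of 39 promoters of repair genes (23.1%). Among all 11305 promoters of listed genes 4.02% held them, and among all 32851 promoters of the RefSeq table the share was 2.26%. The sequences below are the bases before the start of 2 helicase subunit genes with several matches, of 2 repair genes with 1 match, and of Xrcc5, whose partner Xrcc6 has a match and which has none. Capitals mark E2F matches, on either strand.
Mcm5: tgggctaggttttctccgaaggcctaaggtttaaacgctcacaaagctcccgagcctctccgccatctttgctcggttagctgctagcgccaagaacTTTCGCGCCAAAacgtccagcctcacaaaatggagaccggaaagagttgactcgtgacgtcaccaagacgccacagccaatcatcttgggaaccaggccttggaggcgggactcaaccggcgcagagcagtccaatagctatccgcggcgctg
Mcm6: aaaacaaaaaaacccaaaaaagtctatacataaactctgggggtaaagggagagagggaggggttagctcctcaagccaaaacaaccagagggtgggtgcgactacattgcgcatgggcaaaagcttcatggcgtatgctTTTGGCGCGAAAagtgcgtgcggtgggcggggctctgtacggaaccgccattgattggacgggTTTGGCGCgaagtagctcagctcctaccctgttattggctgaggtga
Fancg: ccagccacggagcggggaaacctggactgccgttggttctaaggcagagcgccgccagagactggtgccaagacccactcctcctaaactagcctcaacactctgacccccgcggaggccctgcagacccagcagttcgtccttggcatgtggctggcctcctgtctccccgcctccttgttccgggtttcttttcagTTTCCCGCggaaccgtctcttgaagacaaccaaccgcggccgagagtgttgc
Xrcc6: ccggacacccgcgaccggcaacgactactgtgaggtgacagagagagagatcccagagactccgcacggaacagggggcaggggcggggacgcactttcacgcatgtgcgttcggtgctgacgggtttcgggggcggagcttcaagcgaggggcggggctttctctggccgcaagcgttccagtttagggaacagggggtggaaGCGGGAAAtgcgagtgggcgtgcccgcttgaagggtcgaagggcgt
Xrcc5: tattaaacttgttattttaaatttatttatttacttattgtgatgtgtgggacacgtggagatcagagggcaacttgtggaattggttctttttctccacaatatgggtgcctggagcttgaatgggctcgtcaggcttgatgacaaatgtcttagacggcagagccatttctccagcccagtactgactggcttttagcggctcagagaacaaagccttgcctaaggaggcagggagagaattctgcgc

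The windows were chr8:75109259-75109508 (plus strand) for Mcm5, chr1:128359706-128359955 (minus) for Mcm6, chr4:43010302-43010551 (minus) for Fancg, chr15:82016119-82016368 (plus) for Xrcc6 and chr1:72307171-72307420 (plus) for Xrcc5. In Mcm5, the matches TTTCGCGC and GCGCCAAA overlapped, between 153 and 142 bases before the start. Mcm6 had an overlapping pair between 110 and 99 bases and a further TTTGGCGC between 47 and 40 bases before the start. Fancg had TTTCCCGC from 52 to 45 bases, and Xrcc6 had its reverse, GCGGGAAA, from 46 to 39 bases before the start.

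Median GC content was close in replication promoters (61.3%), repair promoters (61.7%) and those of listed genes (60.7%), but lower in the whole table (52.7%). The median number of CG pairs was 23, 25, 20 and 7 in the same order. Each form of the E2F letters holds a CG pair, and the part of base composition in the E2F shares was not tested. The CCAAT box, bound by NF-Y, was in 58.1% of replication and 56.4% of repair promoters, against 37.9% of those of listed genes. The CHR letters TTTGAA, known from genes of late cell cycle phases, were in 3 of 43 replication promoters (6.98%), in 0 of 39 repair promoters and in 12.4% of those of listed genes. Within replication, genes with E2F letters had a median of 9.72 CPM per kb of exon (14 genes) and those without 8.67 (21 genes). Within repair the medians were 1.21 CPM per kb with the letters (8 genes) and 1.89 without (25 genes). Above 10 CPM were 11 of 14 replication genes with the letters and 17 of 21 without. In repair these were 4 of 8 with the letters and 11 of 25 without, against 58.8% of all genes tested. Unlike the printed genes, Orc1 had the letters and was below 10 CPM, and Rrm2 had none and was above. No test was made of these medians and counts. A match of letters is not a shown binding site.

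**Figure D1:**
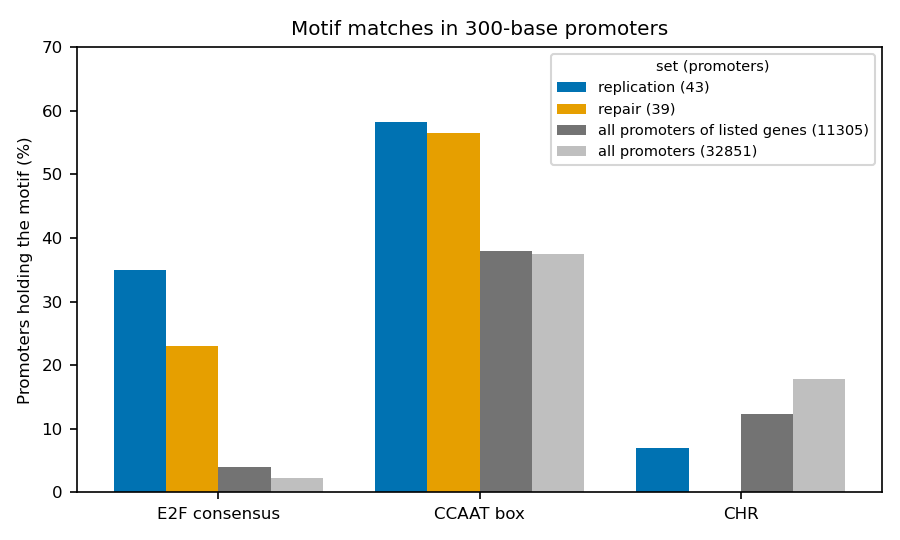
Share of promoters (y axis, percent) that hold the E2F consensus, a CCAAT box or the CHR letters, for replication genes, repair genes, all listed genes and the whole promoter table. The E2F bars stand at 34.9% for replication and 23.1% for repair, against 4.02% for listed genes and 2.26% for the whole table.

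Of the 88 members, all of which had enough reads to be tested, 57 lay above 10 CPM (64.8%), 16 below it (18.2%) and 15 on neither side at a limma adjusted p under 0.05. Of all 11123 genes tested, 58.8% lay above, 28.3% below and 12.9% on neither side, so the share of members above was near the background. The classes lay on different sides of it. Replication had 33 of 42 genes above (78.6%) and 2 below (4.76%), and repair had 21 of 43 above (48.8%) and 14 below (32.6%). The 3 genes of neither class were all above, with Rad21 at 279.8, 266 and 326 CPM in replicates 1, 2 and 3, the highest CPM of all members. The median was 27.1 CPM for replication genes, 12.04 CPM for repair genes and 20.9 CPM for all genes tested.

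Levels of different genes were compared per kb of exon, since repair genes were longer (median exon length 4.04 kb for replication and 5.52 kb for repair). This length is the union of all exons of a gene and can far exceed its longest transcript. Ratios and orders per kb of single genes and complexes can depend on it, and only the class difference was repeated with the longest transcript. Per kb, the replication median was 9.88, 8.08 and 8.26 CPM and the repair median 2.34, 1.97 and 2.33 CPM in replicates 1, 2 and 3. The ratio of medians was thus 3.96 ± 0.35, and on the log2 scale of CPM per kb plus 1 the difference was 1.60 ± 0.11 (SD, n = 3), higher for replication in 3 of 3 libraries. With 3 libraries an exact sign-flip permutation test cannot give a p under 0.25, and no test was made. Of 1806 pairs of a replication and a repair gene, the replication gene was the higher per kb in 1485, 1503 and 1475 pairs, or 82.2%, 83.2% and 81.7%, of replicates 1, 2 and 3. The classes overlapped: 3 repair genes lay above the replication median and 4 replication genes below the repair median of mean levels. The median over all genes tested was 4.62 CPM per kb of mean level, between the classes.

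The gap depended on which class holds the factors used in both processes. With the clamp, clamp loader, replication protein A, ligase I and polymerases delta and epsilon left out, the log2 difference was 1.00 ± 0.04, and with them counted as repair it was 0.52 ± 0.08 (SD, n = 3). With the longest transcript in place of the exon length it was 1.69 ± 0.13 (SD, n = 3). Without scaling to length it was 0.98 ± 0.17 on the log2(CPM + 1) scale. The direction was the same in each of these.

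**Figure D2:**
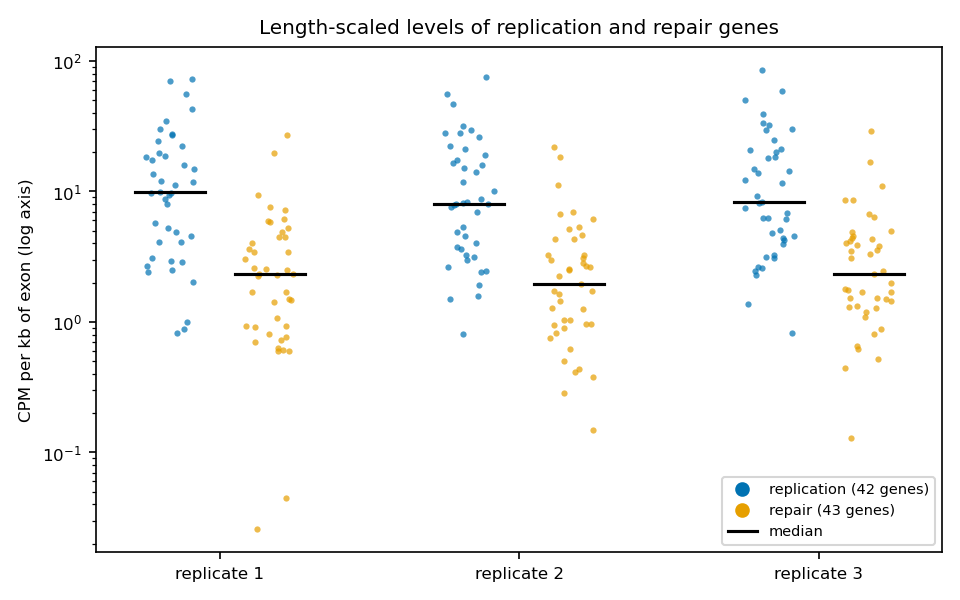
Levels of 42 replication and 43 repair genes in each library, as CPM per kb of exon on a log axis, with a point per gene and a bar at the median. The replication medians are 9.88, 8.08 and 8.26 and the repair medians 2.34, 1.97 and 2.33 in replicates 1, 2 and 3, with overlapping points.

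All 6 subunits of the MCM2-7 helicase, the ring that unwinds DNA at the fork, were above 10 CPM, and their means lay within a 2.60-fold range in CPM and a 3.57-fold range per kb. Mcm5 (chromosome 8, 75109569 to 75128439, plus strand, GRCm38) had 282, 223 and 235 CPM in replicates 1, 2 and 3, or 4.48 above the level of 10 CPM in log2 units (SE 0.11, limma adjusted p = 3.53e-20). Mcm7 had 191, 141 and 175 CPM, and Mcm6 had 140.4, 131 and 156 CPM. The lowest in CPM, Mcm4, had 97.9, 80.7 and 106 CPM, still above 10 CPM in each library (limma adjusted p = 3.19e-16). Replicate 2 was the lowest library for Mcm2, Mcm4, Mcm5, Mcm6 and Mcm7. Per kb, Mcm5 was 2.36 ± 0.31 times Mcm4 (SD, n = 3), higher in 3 of 3 libraries, and Mcm2 was the lowest subunit at 17.3 ± 1.99 CPM per kb. Mcm2 has 6.96 kb of exon but a longest transcript of 3.37 kb, so its place depends on the length used. Mcm7 is uncertain, because 72.8% of its longest transcript has a copy of at least 97% identity in Gm5487, and how the authors counted reads with several matches is not given in the sources used here.

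The 3 nucleotide supply genes were above 10 CPM. Rrm2 and Rrm1, the small and large subunits of ribonucleotide reductase, had 201, 209.8 and 237 CPM and 193, 182 and 220.5 CPM in replicates 1, 2 and 3. Per kb of exon, Rrm2 was 4.33 ± 0.23 times Rrm1 and the highest member of all, at 77.9 ± 6.66 CPM per kb (SD, n = 3). Rrm1 has 11.012 kb of exon but a longest transcript of 3.997 kb, against 2.771 and 2.193 kb for Rrm2. The size of the ratio of Rrm2 to Rrm1 thus depends on the length used. Rrm2 is the subunit made in S phase. Tyms, thymidylate synthase, had 48.9, 42.3 and 50.1 CPM.

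Origin recognition genes, whose products load the helicase, were lower per kb than every helicase subunit, at 7.36 CPM per kb or less on average. Of 6 origin recognition genes, 2 were above 10 CPM and 2 below. Orc3 had the highest CPM, at 34.8, 24.7 and 37.8 CPM, and Orc6 was next at 23.9, 18.8 and 11.9 CPM in replicates 1, 2 and 3. Per kb of exon the order turned, with Orc6 at 7.36 ± 2.43 and Orc3 at 5.32 ± 1.13 CPM per kb (SD, n = 3). Orc3 has 6.09 kb of exon but a longest transcript of 2.3 kb, against 2.47 and 1.47 kb for Orc6. Their order per kb thus depends on the length used. Orc1, the subunit that is degraded and remade through the cell cycle, was below 10 CPM at 3.50, 5.18 and 2.85 CPM (log2 level -1.21, SE 0.27, limma adjusted p = 0.000325). Orc5 was also below at 6.15 ± 1.99 CPM (SD, n = 3, limma adjusted p = 0.0195), a call lost without replicate 1 (limma adjusted p = 0.0553) or replicate 2 (0.158) and in DESeq2 on the recovered reads (0.0502). Orc4 ran over 6.60, 11.9 and 23.2 CPM and was called neither way, with replicate 3 highest, and was above without replicate 1 (limma adjusted p = 0.00185). Orc2 was at 10.2 ± 0.98 CPM, with 29.8% of its exon length shared with Nif3l1. The median of the complex was 2.28 ± 0.51 CPM per kb, against 29.6 ± 2.00 CPM per kb for the MCM2-7 helicase (SD over libraries, n = 3).

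Among activators, Gins4 and Mcm10 were above 10 CPM, at 30.6 ± 4.14 and 27.7 ± 5.27 CPM, and Gins1, Gins2 and Gins3 were called neither way at 7.58 ± 0.74, 11.5 ± 1.71 and 11.6 ± 2.78 CPM (SD, n = 3). The 4 GINS subunits form 1 complex, yet per kb Gins4 was 4.59 ± 0.98 times Gins1. At 22.7 ± 3.07 CPM per kb of exon, Gins4 lay above Mcm2 alone of the helicase subunits. This order depends on the length used for Mcm2, 6.96 kb of exon against 3.37 kb of longest transcript. For Gins4 each length is 1.35 kb. Gins2 is uncertain, since 67.3% of its exon length overlaps exons of Gse1 on the other strand and the strand setting of the counting is not given. The median of GINS and Mcm10 was 4.21 ± 0.52 CPM per kb.

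All 4 genes of polymerase delta, which extends the lagging strand, were above 10 CPM. The catalytic subunit Pold1 had the highest CPM, with 108, 103 and 102 CPM in replicates 1, 2 and 3. Per kb, the short Pold4 was at 22.7 ± 6.18 and Pold1 at 21.5 ± 0.62 CPM per kb (SD, n = 3), within the spread of Pold4. Pold1 varied least of the 4, with an SD of 3.01 CPM around 104 CPM. Pole, the catalytic subunit of polymerase epsilon on the leading strand, had 34.8, 36.5 and 50.7 CPM. Per kb, Pold1 was 6.08 ± 1.29 times Pole and 10.2 ± 1.39 times Pola1 (SD, n = 3), in 3 of 3 libraries.

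The 4 genes of polymerase alpha and primase, which lay the first stretch of each new strand, were all above 10 CPM, from Pola1 at 18.8 ± 2.49 to Prim2 at 21.8 ± 3.00 CPM, a 1.16-fold range of means in CPM. Per kb the range was 2.39-fold, from Pola1 at 2.13 ± 0.28 to Prim1 at 5.10 ± 1.10 CPM per kb (SD, n = 3). Of the epsilon subunits, Pole4 and Pole3 were above at 22.8 ± 5.81 and 16.5 ± 3.57 CPM, and Pole2 was called neither way at 7.38 ± 1.05 CPM (SD, n = 3). The complex medians were 16.1 ± 1.03 CPM per kb of exon for delta, 5.85 ± 0.54 for epsilon and 3.13 ± 0.23 for alpha with primase. Pola2 and Prim2 have 8.29 and 5.94 kb of exon but longest transcripts of 2.42 and 1.975 kb. The order of epsilon and of alpha with primase thus depends on the length used.

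Pcna, the sliding clamp, had 135, 111 and 121 CPM (log2 level 3.48, SE 0.12, limma adjusted p = 1.22e-17). It is uncertain in the same way as Mcm7, with 51.4% of its transcript copied in Pcna-ps2. The clamp loader was uneven, from Rfc2 at 104 ± 14.5 and Rfc1, its large subunit, at 82.4 ± 8.84 CPM to Rfc3 at 16.1 ± 1.72 and Rfc4 at 13.4 ± 3.39 CPM (SD, n = 3). Of the 6 genes of clamp and loader, Rfc4 alone was called neither way (limma adjusted p = 0.103), and it was above without replicate 3 (0.0309). Per kb, Rfc2 was 1.93 ± 0.24 times Rfc4. Of replication protein A, which coats single strands, Rpa1 had 89.1, 65.4 and 80.6 CPM, and the shorter Rpa2 and Rpa3 had 25.6 ± 2.41 and 19.0 ± 4.05 CPM. Lig1, the ligase that joins Okazaki fragments, had 149, 113 and 138 CPM.

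**Figure D3:**
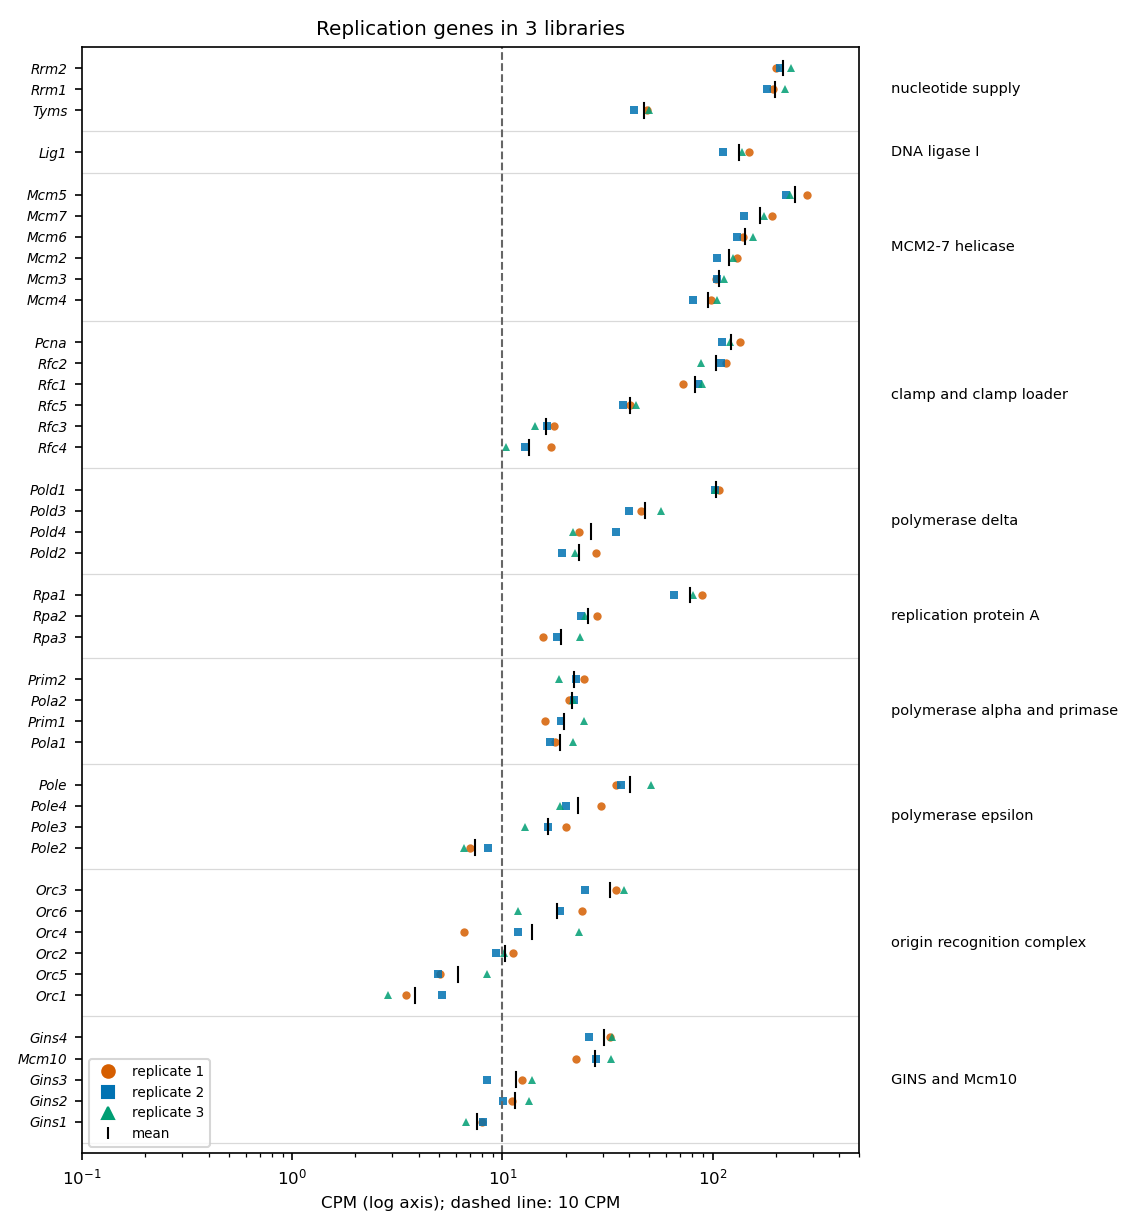
CPM of each of the 42 replication genes (x axis, log scale) in replicates 1, 2 and 3, grouped by complex, with a bar at the mean and a dashed line at 10 CPM. The 6 MCM2-7 genes all lie right of the line, from 94.7 to 247 CPM on average, while the origin recognition genes lie on both sides of it, from 3.84 to 32.4 CPM.

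Of the members in excision and single-strand break repair, all were above 10 CPM. Rad23b, a partner of XPC in damage recognition and a carrier of ubiquitylated proteins to the proteasome, had 54.0, 64.2 and 62.7 CPM in replicates 1, 2 and 3, with replicate 1 lowest. Xrcc1, the scaffold of single-strand break repair, and Lig3, the ligase it binds, had 45.4 ± 4.91 and 46.0 ± 3.14 CPM (SD, n = 3), with 25.1% of the Lig3 exon length shared with Rffl. Per kb, Lig1 was 4.99 ± 1.02 times Lig3, and Lig3 was 4.97 ± 3.43 times Lig4, the ligase of end joining.

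Of 14 listed homologous recombination genes, 8 were above 10 CPM, 5 below and Mcm9 neither. Those above lay between 16.1 CPM (Brca2) and 26.4 CPM (Brca1) on average, and the call of Brca2 was lost without replicate 2 (limma adjusted p = 0.0625). Rad50, of the complex that senses breaks, was steady at 24.3, 24.9 and 26.3 CPM in replicates 1, 2 and 3. Brca1, by contrast, ran over 14.6, 27.8 and 37.0 CPM, a 2.54-fold range with replicate 1 lowest. Rad52, Rad54l, Rad51ap1 and Rad51d were also above.

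Below 10 CPM in this pathway were the recombination mediators Xrcc3 (2.66 ± 1.18 CPM), Rad51c (5.42 ± 1.07) and Xrcc2 (5.66 ± 3.17), the helicase gene Mcm8 (3.94 ± 2.10) and Rad54b (6.69 ± 2.81; SD, n = 3). Rad54b had the weakest of these calls, with limma adjusted p = 0.0394, and lost it in edgeR (0.0915) and DESeq2 (0.106) on the recovered reads and without replicate 1 (0.167). Of its exon length, 35.9% overlaps other genes, mostly Fsbp. Leaving out replicate 1 also ended the call of Xrcc2 (limma adjusted p = 0.0626). Mcm8 and Mcm9, whose products work as a pair, had 5.44, 1.54 and 4.84 CPM and 8.54, 11.6 and 15.5 CPM in replicates 1, 2 and 3, with Mcm8 lowest in replicate 2 and Mcm9 in replicate 1.

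The Fanconi anaemia genes, which repair crosslinks between strands, were divided. Of 10, 4 were above 10 CPM: Fancg (24.5 ± 3.70 CPM), Fanca (24.1 ± 2.76), Fancd2 (23.6 ± 6.47) and Fanci (19.1 ± 6.87). Fancd2 and Fanci, the pair that is ubiquitylated together, were at a ratio of 1.10 ± 0.17 per kb, Fanci to Fancd2 (SD, n = 3). Below were Fancb (5.65 ± 2.80 CPM), Fancc (5.19 ± 2.71), Fancl (3.83 ± 1.54), the ubiquitin ligase subunit, and Fancf (1.79 ± 1.05). Fancm and Fance were called neither way, and 7 of the 10 genes differed over 2-fold between libraries, as did 25.5% of all genes tested.

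Mismatch repair had 1 of 5 genes above, Msh6, with 21.4, 26.8 and 37.4 CPM in replicates 1, 2 and 3. Replicate 1 was its lowest library and replicate 3 its highest. Msh3, which like Msh6 takes part in reading mismatches, was called neither way at 12.04 ± 4.13 CPM. Per kb, Msh6 was 6.23 ± 0.48 times Msh3 (SD, n = 3), higher in 3 of 3 libraries. Msh3 has 11.3 kb of exon but a longest transcript of 3.95 kb, so the size of this ratio depends on the length used. Mlh3 was below 10 CPM, with 0.194, 3.76 and 3.38 CPM, the first from 1 read and under the limit of 0.583 CPM for a count of 0. Msh5, a homologue used in meiosis, was below at 3.86 ± 1.31 CPM.

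End joining had 1 of 4 genes above, and its DNA end sensor was uneven. Xrcc6 and Xrcc5 encode Ku70 and Ku80, which form a heterodimer. Xrcc6 had 23.5, 19.5 and 18.7 CPM (log2 level 0.96, SE 0.18, limma adjusted p = 3.42e-05) and Xrcc5 had 1.55, 2.47 and 2.77 CPM in replicates 1, 2 and 3 (log2 level -1.77, SE 0.30, limma adjusted p = 1.06e-05). Per kb, Xrcc6 was 5.67 ± 2.59 times Xrcc5 (SD, n = 3), higher in 3 of 3 libraries, and the groups of values did not overlap. Xrcc5 rested on 8 reads in replicate 1. The promoter of Xrcc5, printed above, had no E2F letters and that of Xrcc6 had 1 match. Over repair genes the median was 1.21 CPM per kb with the letters and 1.89 without, and a link of letters to level was not tested. Lig4 and its partner Xrcc4 were called neither way, at 12.2, 3.94 and 9.39 CPM and 7.18, 8.29 and 6.49 CPM, and Lig4 was below without replicate 1 (limma adjusted p = 0.0336).

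Of the checkpoint clamp, a ring like PCNA that signals stalled forks, Rad9a was above at 64.3, 43.3 and 39.6 CPM and Rad1 below at 4.47, 2.81 and 4.63 CPM in replicates 1, 2 and 3. Per kb, Rad9a was 40.0 ± 11.6 times Rad1 (SD, n = 3). Rad1 has 7.40 kb of exon but a longest transcript of 4.09 kb, against 2.36 and 2.08 kb for Rad9a. The size of this ratio thus depends on the length used, and 9.53% of the Rad9a exon length overlaps Ppp1ca on the other strand. Rad9b, the second Rad9 gene, was lowest of all members at 0.194, 0.648 and 0.558 CPM, and its value in replicate 1 came from 1 read. Rad17, which loads the ring, was above at 27.97 ± 4.94 CPM, as was Rad18, which marks PCNA for translesion synthesis, at 16.6 ± 3.19 CPM.

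**Figure D4:**
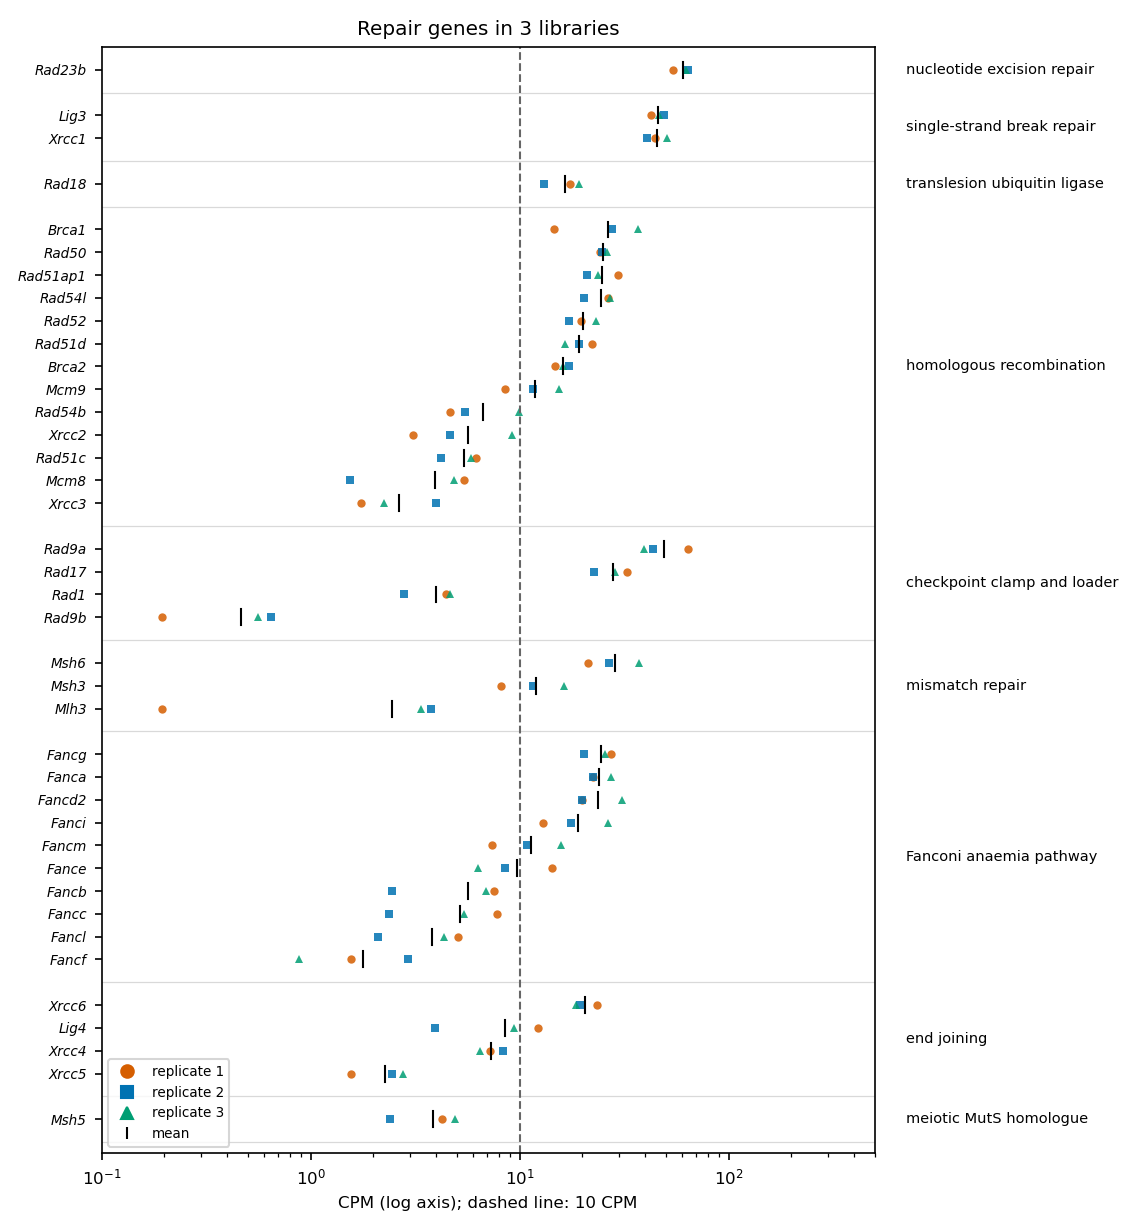
CPM of 39 repair genes (x axis, log scale) in replicates 1, 2 and 3, grouped by pathway, with a bar at the mean and a dashed line at 10 CPM. Pathways lie across the line, with Xrcc6 at 20.5 CPM right of it and Xrcc5 at 2.26 CPM left of it, and the libraries lie further apart among the low genes.

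The libraries differed less for replication than for repair genes. The median coefficient of variation between libraries was 14.0% for replication genes, 27.1% for repair genes and 20.6% for all genes tested. Over 2-fold between the highest and the lowest library were 2 of 42 replication genes, Orc4 and Orc6, and 17 of 43 repair genes, or 4.76% and 39.5%, against 25.5% of all genes tested. Repair genes also had lower levels, with a median of 12.04 CPM in their class, and the part of counting error in the spread was not tested. Replicate 2 was the lowest library for 40 of the 88 members (45.5%), replicate 1 for 29 (33.0%) and replicate 3 for 19 (21.6%). Of all genes tested, replicate 2 was the lowest for 30.1%, replicate 1 for 44.0% and replicate 3 for 25.9%. The summed level of the replication genes was 2615, 2327 and 2624 CPM and that of the repair genes 746, 701 and 841 CPM in replicates 1, 2 and 3.

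Without replicate 2, 9 repair genes were below in place of 14, as Fancb, Fancc, Rad51c, Rad54b and Xrcc2 lost their calls (limma adjusted p = 0.269, 0.150, 0.0973, 0.199 and 0.0547), while 20 repair and 33 replication genes were above. The 9 are 20.9% of repair genes, against 23.1% of all genes tested in that setting, so the repair share below was no longer over the background. With no filter on low counts, Fancb, Fancc, Rad54b and Xrcc2 also lost theirs (limma adjusted p = 0.0840, 0.0581, 0.103 and 0.0711). That left 10 repair genes below (23.3%), against 28.01% of all genes.

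Other genes of the same processes, taken from lists rather than from the name rule, were set against the same level, and 58.8% of all genes tested were above it and 28.3% below. Of 25 origin firing and fork factors, 21 were above 10 CPM and 1 below. Rnaseh2c, a subunit of the enzyme that removes RNA from DNA, led at 134 ± 23.7 CPM, followed by Topbp1, a helicase activator, at 119 ± 7.99 CPM, and Dscc1, of a second clamp loader, was below at 6.71 ± 0.97 CPM (SD, n = 3). Of 9 genes of replication-coupled chromatin, 8 were above, among them the maintenance methyltransferase Dnmt1 at 273 ± 41.4 CPM and its recruiter Uhrf1 at 133 ± 17.6 CPM. Of 14 nucleotide metabolism genes, 11 were above and 0 below. Samhd1, which breaks nucleotides down and is known from myeloid cells, led at 507 ± 64.9 CPM, and the thymidine kinase Tk1 was at 71.5 ± 1.36 CPM.

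Of 25 genes that govern the entry into S phase, 21 were above and 3 below, with the cyclin gene Ccnd3 at 992 ± 109.8 CPM, E2f2 at 299 ± 36.9 and Tfdp1, an E2F partner, at 269 ± 39.1 CPM. Ccnd1, another D cyclin, was below with 0, 1.52 and 1.97 CPM in replicates 1, 2 and 3, as was the inhibitor Cdkn1c at 0.558 ± 0.653 CPM (SD, n = 3). All 15 genes of G2 and mitosis were above 10 CPM. Mki67, a mark of cycling cells, had 477, 771 and 756 CPM, lowest in replicate 1, whereas the replication genes summed to 2615 CPM in that library and 2327 CPM in replicate 2.

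Among the 7 repair lists, recombination and break signalling (68.0%) and translesion synthesis (63.6%) had shares above 10 CPM over the 58.8% of all genes tested, and the other 5 had shares under it; these differences were not tested. Of 25 listed genes of recombination and break signalling, 17 were above and 2 below, with the histone variant gene H2afx at 365 ± 44.99 CPM and the damage kinase Atm at 2.71 ± 1.51 CPM, below. Fanconi partners had 4 of 8 above and 2 below, led by Wdr48 at 77.4 ± 25.6 CPM and Usp1 at 74.7 ± 8.13 CPM, a cofactor and the enzyme that removes ubiquitin from Fancd2. End joining partners had 4 of 9 above and 1 below. Paxx, which helps to hold broken ends, was at 32.0 ± 8.82 CPM, the polymerase gene Polm at 20.8 ± 5.76 and Aplf, a scaffold, below at 6.36 ± 1.39 CPM (SD, n = 3).

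Base excision had 7 of 17 above and 6 below, with the glycosylases Neil3 at 42.3 ± 0.65 CPM and Neil1 at 2.54 ± 0.50 CPM. Nucleotide excision had 7 of 18 above and 3 below, with Ddb1 at 206 ± 16.5 CPM and the nuclease gene Ercc5 at 1.75 ± 1.14 CPM. Of the 2 mismatch repair partners, Pms1 was below at 4.62 ± 1.87 CPM and the other was called neither way. Translesion synthesis had 7 of 11 above and 3 below, with the scaffold polymerase Rev1 at 37.6 ± 4.32 CPM and Polk at 2.53 ± 0.59 CPM (SD, n = 3). The list medians ran from 26.6 to 112 CPM for the 5 lists of replication and cell cycle and from 7.07 to 26.2 CPM for the 7 lists of repair. All genes tested had a median of 20.9 CPM.

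**Figure D5:**
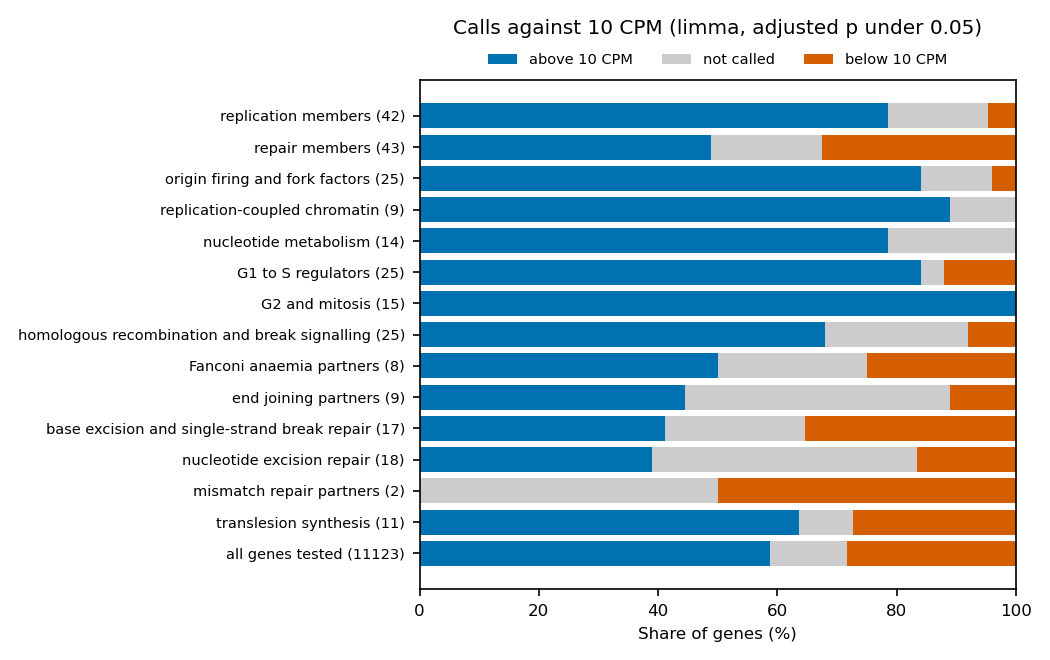
Share of genes (x axis, percent) above 10 CPM, not called, and below 10 CPM in each class of members, in each list of other genes with its number of genes, and over all 11123 genes tested. The replication class has 78.6% above and the repair class 48.8%, against 58.8% of all genes tested.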

How the data were processed

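Messenger RNA libraries were made with a NEXTflex kit and read on a NextSeq500, per the labels' protocols. The authors deposited CPM for each gene and library. Per the submitters' processing notes, their tools were FastQC, STAR, featureCounts and edgeR, with builds mm10 and GRCh38; versions, annotation, strand setting and gene filter are not given in the sources used here. Of 11463 entries per library, 44 repeated a gene with identical values and were dropped. The CPM of the 11419 genes then summed to 1000000, and 100% of values in each library were whole multiples of 1 read within 0.02 reads, which gave the totals and the reads per gene.

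Using limma 3.58.1 (R 4.3.3), the mean of log2(CPM + 1) was tested two-sided against its value at 10 CPM, with trended empirical Bayes, over the 11123 genes with at least 10 reads. p-values were adjusted by Benjamini and Hochberg over all of them, and a gene was called at an adjusted p under 0.05. This scale understates differences of low genes. The test was also run on simulated data, in which every gene had the same relative spread beyond counting error. That run does not cover genes that vary more between libraries. At unadjusted p under 0.05, 6562 genes were above and 3173 below. Exon lengths, as the union of exons, and coordinates came from GENCODE M21 (GRCm38), which gave 99.9% of genes a length. Copies were sought with BLAST at 97% identity over at least 75 bases. edgeR 4.0.16 and DESeq2 1.42.0 on recovered reads were alternatives. The members, classes and lists were chosen with earlier results of these data known. Any member could be named, and from each list of other genes up to 3 of highest mean above and up to 2 of lowest mean below 10 CPM could be named. A few of these genes are not reported here singly but stay in the counts and medians. With 3 libraries of 1 group, the SE and p-values describe only these libraries. Both rest on a variance drawn by empirical Bayes toward a trend over all genes tested, not on a gene's own spread alone. Without the trend, the limma adjusted p of Mcm5 was far larger, and Mcm5 was still above 10 CPM.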

Additional observations from a re-analysis of the deposited data

How the results depend on the processing

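No paired analysis was possible because there was 1 group. The number of members above 10 CPM was 56 to 58 without 1 library and 57 with pseudocounts of 0.1 and 0.5, other filters, TMM or DESeq2 scaling, edgeR or DESeq2 on recovered reads, and limma without trend. At 5 CPM, 69 members (78.4%), 39 replication (92.9%) and 27 repair genes (62.8%) were above, against 7712 of all genes (69.3%). Below were 5 members (5.68%), 5 repair genes (11.6%) and 0 replication genes, against 1870 of all genes (16.8%). The repair share below was thus under the background, whereas at 10 CPM it was over it, at 32.6% against 28.3%. At 20 CPM, 30 members, 21 replication and 7 repair genes were above, and 31, 9 and 22 below, with 4929 and 4689 of all genes; the members' share above (34.1%) was then under that of all genes (44.3%). Against 10 CPM per kb of exon, 21 members (23.9%), 17 replication (40.5%) and 2 repair genes (4.65%) were above, against 2896 of all genes (26.1%). Below were 59 (67.0%), 18 (42.9%) and 40 (93.0%), against 6976 of all genes (62.8%). Without 1 library, members below numbered 10 to 16 (11.4% to 18.2%) and repair genes below 9 to 14 (20.9% to 32.6%), against 23.1% to 27.8% of all genes. Replication genes below numbered 1 to 2 (1 also in DESeq2). The replication minus repair difference was 1.93 with a pseudocount of 0.1, 0.98 without lengths, 1.00 without shared genes and 0.52 with them in repair, and 1.54 to 1.66 without 1 library.

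Of 84 members reported singly, 67 kept direction and side of the threshold under all alternatives run for them. There were 12 alternatives for single genes, but Rad9b, at a mean of 0.467 CPM, was left out by the filter of 1 CPM. The levels of 5 and 20 CPM and per kb were run for counts only. Members near 10 CPM, none called, changed sign without 1 library, with log2 levels of -0.40 to 0.14 for Fance, -0.14 to 0.36 for Fancm, -0.62 to 0.092 for Lig4, -0.0055 to 0.39 for Mcm9, -0.036 to 0.43 for Msh3, -0.038 to 0.087 for Orc2 and -0.15 to 0.68 for Orc4. Of these 7 changes of sign, 5 came without replicate 3, 1 without replicate 1 and 1 without replicate 2. The cause was not tested. Replicate 1 was the shallowest at 5150020 reads, so that low members rest on few reads there.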
